A study of Mus musculus with 6 samples.

Results

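Activins, inhibins and follistatins form a hormone system that gonadotropes both secrete and sense. The 10 genes described here encode the subunits of activin and inhibin (*Inha*, *Inhba*, *Inhbb*), the proteins that bind activin (*Fst*, *Fstl3*), the activin receptors (*Acvr1*, *Acvr1b*, *Acvr2a*, *Acvr2b*) and the inhibin co-receptor betaglycan (*Tgfbr3*). They were found by matching the identifiers of the count table to these symbols, and all 10 of them were among its 47069 genes. The cells were LβT2, an immortalized mouse line with features of pituitary gonadotropes, at passage 14. All 6 libraries came from cells given 2 nM gonadotropin-releasing hormone (GnRH) for 40 min, 3 from cells that were lysed directly (fresh) and 3 from cells kept in the stabilizing reagent RNA-Best for 4 days or more at 4°C. No vehicle-treated library was analysed here, so the values describe GnRH-treated cells and the comparison is that of RNA-Best with fresh cells. Whether the replicates of a group were separate cultures is not given in the sources used here, so n counts libraries and their spread may be technical.

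Activin is a dimer of beta subunits, and inhibin pairs a beta subunit with the alpha subunit encoded by *Inha*. Activin binds a type II receptor, ACVR2A or ACVR2B, which brings in and phosphorylates a type I receptor such as ACVR1B, and SMAD2 and SMAD3 then carry the signal to the nucleus. In gonadotropes this pathway is known for driving *Fshb*, the gene of the follicle-stimulating hormone beta subunit. Follistatin and FSTL3 trap activin outside the cell, and inhibin, held by betaglycan, occupies the type II receptors without starting the signal.

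The study had designed qPCR primers for 2 of these genes, *Inha* and *Fst*, and these are shown because the libraries held counts for the first and none for the second. In the transcripts of GENCODE (GRCm38), the *Inha* product runs from exon 1 to exon 2 of ENSMUST00000037330.4 and is 64 bases long, over chr1:75507481-75509359 on the plus strand. The *Fst* product runs from exon 5 to exon 6 of ENSMUST00000022287.7 and is 84 bases long, over chr13:114453444-114454301 on the minus strand. In these transcripts both pairs lie in coding sequence and span an intron.
*Inha* forward: ggaagatgtctcccaggcta
*Inha* reverse: agctggctggtcctcaca
*Fst* forward: aagcattctggatcttgcaact
*Fst* reverse: gataggaaagctgtagtcctggtc

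The beta subunit genes are shown by the 250 bases before their RefSeq starts (GRCm38.p6), since the data divided them most sharply, with counts for *Inhbb* and none for *Inhba*. CpG dinucleotides are in capitals. The *Inhbb* window, chr1:119422249-119422498 on the minus strand, held 21 CpG and 68.0% G or C, and 16.4% of the 32851 promoter windows held at least as many CpG. The *Inhba* window, chr13:16011601-16011850 on the plus strand, held 3 CpG and 43.2% G or C, and 71.0% of windows held at least as many. The motifs searched on both strands were the TATA box TATAAA, the cAMP response element TGACGTCA and the shorter TGACG that lies within it, the AP-1 site TGANTCA, the SF-1 site AAGGTCA, the GATA site AGATAA, the Smad site GTCTAGAC and the Egr site GCGNGGGCG. Of these, only the TATA box was present in either window, with 1 match in that of *Inhba*, and 12.4% of all windows held it.
*Inhbb* promoter: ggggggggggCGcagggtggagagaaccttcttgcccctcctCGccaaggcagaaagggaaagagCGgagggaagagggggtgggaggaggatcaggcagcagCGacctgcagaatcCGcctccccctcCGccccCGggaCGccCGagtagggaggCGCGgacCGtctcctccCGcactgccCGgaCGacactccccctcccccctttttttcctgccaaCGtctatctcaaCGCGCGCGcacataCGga
*Inhba* promoter: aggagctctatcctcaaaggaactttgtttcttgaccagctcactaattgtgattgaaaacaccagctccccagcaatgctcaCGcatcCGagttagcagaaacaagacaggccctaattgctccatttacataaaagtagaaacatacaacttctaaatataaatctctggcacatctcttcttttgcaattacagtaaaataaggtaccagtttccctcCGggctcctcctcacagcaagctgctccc

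The libraries differed in depth, with 14477304 to 47438746 counts in fresh and 4909418 to 11999363 in RNA-Best libraries, and levels are given as CPM, the count divided by its library's total and scaled to a common total. Between replicates the chi-square of the counts was 1.82 to 2.21 per gene in fresh and 1.08 to 1.29 in the shallower RNA-Best libraries. Counting error alone would give about 1, and all 6 libraries were kept as separate samples. Of the 6 gonadotrope markers, *Fshb* was at 0 counts in all libraries, and the summed level of the list was 2403 to 2428 CPM in fresh and 2004 to 2043 CPM in RNA-Best libraries. Most of that difference lay in *Cga*, the gene of the common alpha subunit of the gonadotropins, with means of 1813 CPM in fresh and 1426 CPM in RNA-Best libraries. *Nr5a1* was also lower, *Gnrhr* and *Foxl2* were higher, and *Lhb* had a log2 fold change of 0.03 that did not pass. The summed levels of the 3 folliculostellate and stem cell markers (*Sox2* at 0) and of the 4 fibroblast markers (*Dcn* at 0) were at most 0.271 CPM in any library. The 4 hormone genes of other pituitary cells (*Prl* at 0) summed to 0.765 to 1.11 CPM in fresh and 1.22 to 2.28 CPM in RNA-Best libraries. Nearly all of this sum was *Tshb*, with 133 counts over all libraries and a log2 fold change of 0.91 (edgeR, adjusted p = 0.0035). The 4 immune and endothelial markers (*Ptprc* at 0) summed to 193 to 195 CPM in fresh and 197 to 211 CPM in RNA-Best libraries, mostly from *Cdh5*, which encodes the endothelial cadherin. The part of these markers in the results was not tested.

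The cells expressed the alpha and beta B subunits, activin receptors of both types and betaglycan, and no transcript of the beta A subunit or of follistatin was counted. *Inhba* (chr13:16011851-16031621) and *Fst* (chr13:114452290-114458951) had 0 counts in each of the 6 libraries. Over the 128133221 counts of all libraries, 0 allows a level of up to 0.0234 CPM for each, and up to 0.611 CPM in RNA-Best replicate 2, the smallest library (counting error only). Both genes are thus below detection at this depth in fresh and in RNA-Best cells alike.

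*Inhbb* (chr1:119415465-119422248), the beta B subunit gene, had 361, 343 and 325 CPM in the fresh libraries and 325, 323 and 341 CPM in the RNA-Best libraries. *Inha* (chr1:75507077-75510366), the alpha subunit gene, had 119.99, 124 and 122 CPM in fresh and 106, 96.0 and 97.3 CPM in RNA-Best libraries. Divided by exonic length, which is 4255 bases for *Inhbb* and 1475 for *Inha*, the means over all libraries were 79.0 and 75.1 CPM per kb. The ranges of these subunits over the 6 libraries overlapped, at 75.8 to 84.7 and 65.1 to 83.8 CPM per kb. Per kb of exon, *Inhbb* was at least 22076-fold higher than *Inhba*, from counts pooled over the libraries and with *Inhba* set at a floor of 3 counts in all.

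**Figure D1:**
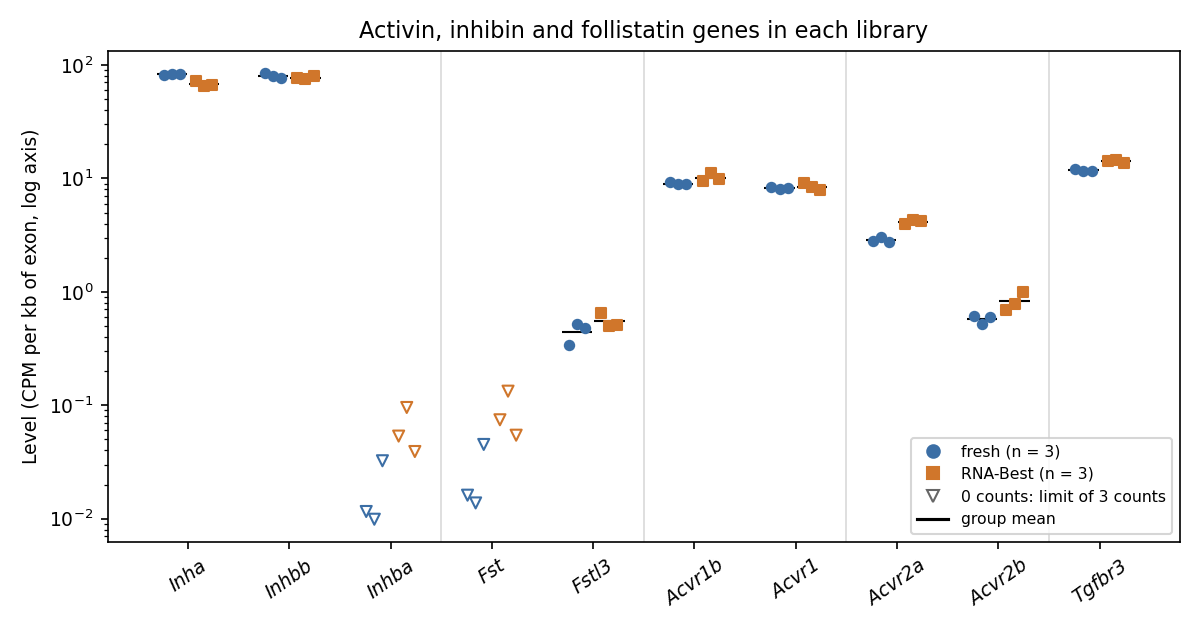
Level of each gene in CPM per kb of exon (log axis) in the 3 fresh (circles) and 3 RNA-Best libraries (squares), with the group mean as a line, grouped as subunits, binding proteins, type I receptors, type II receptors and betaglycan. Open triangles mark the level that 3 counts would give in each library for *Inhba* and *Fst*, which had 0 counts, and *Inhbb* and *Inha* lie highest, from 65.1 to 84.7.

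In order of level per kb, the subunit genes were followed by *Tgfbr3* at 12.9 CPM per kb, *Acvr1b* at 9.58, *Acvr1* at 8.34, *Acvr2a* at 3.51, *Acvr2b* at 0.699 and *Fstl3* at 0.501 CPM per kb (means over 6 libraries). Besides the subunits, neighbours in this order whose ranges over the libraries overlapped were *Acvr1b* and *Acvr1*, and *Acvr2b* and *Fstl3*. With the length of the longest transcript in place of all exonic bases, a choice made after seeing the data, *Acvr1* stood at 12.2 CPM per kb and above *Acvr1b*. Among the binding proteins only *Fstl3* was detected, at least 91.3-fold higher per kb than *Fst* from pooled counts, with *Fst* at the same floor. Of the type II receptors *Acvr2a* was the higher, with 2306 counts in all libraries against 313 for *Acvr2b*.

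Reads of these genes could in part belong to neighbours. No stretch as long as a read was shared between transcripts of any pair of the 10 genes. *Fstl3* shared 1157 of its 2445 exonic bases with *Prss57* on the opposite strand, *Acvr2a* shared 446 of 5686 with *Orc4* and *Fst*, which had 0 counts, shared 115 of 4589 with *Gm47040*, also on opposite strands, and *Tgfbr3* shared 297 of 6545 with *Gm43422* on the same strand. The sources used here do not state that counting used strand, so the values of *Fstl3* in particular are uncertain. Parts of counts were present for *Inha* in 2 libraries and for *Inhbb* and *Tgfbr3* in 1 each.

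Preservation in RNA-Best left the pattern of which genes were expressed as it was in fresh cells, and log2 fold changes of the genes tested lay between -0.30 and 0.58. *Inha* was lower in RNA-Best, and *Acvr2a*, *Acvr2b*, *Tgfbr3* and *Acvr1b* were higher. In edgeR's quasi-likelihood test with Benjamini-Hochberg adjustment over all genes, 5 of the 8 genes tested had an adjusted p under 0.05, 4 higher and 1 lower, and 3 did not. Across all 14736 genes tested, 50.8% passed, 26.0% higher and 24.8% lower in RNA-Best, so a share of this size is near that of any genes in this table. In bulk samples, fewer cells with a transcript and less of it per cell cannot be told apart.

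The alpha subunit fell. Each RNA-Best library had less *Inha* than each fresh library, with a mean of 99.8 ± 5.42 CPM (SD, n = 3) against 122 ± 1.79 CPM (SD, n = 3) in fresh, and groups did not overlap in 57.5% of all tested genes. Its log2 fold change was -0.30 (95% interval -0.38 to -0.22, adjusted p = 4.18e-08 from edgeR). An offset for exonic length brought the value to -0.18 (edgeR, adjusted p = 0.00019), and an offset for GC content brought it to -0.18 as well. For *Inhbb* the fresh mean was 343 ± 17.9 CPM and the RNA-Best mean 329 ± 10.2 CPM (SD, n = 3 each). The groups overlapped, and its log2 fold change of -0.07 did not pass (95% interval, not adjusted for the number of genes, -0.14 to -0.0035, adjusted p = 0.0742 from edgeR). Leaving out fresh replicate 3 gave -0.10 and leaving out replicate 3 of RNA-Best also -0.10, and both passed (edgeR, adjusted p = 0.00871 and 0.0369). Without fresh replicate 1, the highest library, it was -0.03 and did not pass (edgeR, adjusted p = 0.447), and the sign turned with the GC offset, to 0.05. With no filter on low counts it was -0.12 and passed (edgeR, adjusted p = 0.000599), but that fit gave lower values for all 8 genes tested.

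*Fstl3* (chr10:79777272-79782630), whose product binds activin much as follistatin does, had 0.839, 1.26 and 1.17 CPM in fresh and 1.60, 1.22 and 1.25 CPM in RNA-Best libraries. The groups overlapped. Its log2 fold change was 0.32 with a 95% interval of -0.23 to 0.86 (adjusted p = 0.362 from edgeR), so at 146 counts over all libraries neither a fall of 0.23 nor a rise of 0.86 lay outside the interval. Single libraries moved the value of *Fstl3*, to 0.12 when fresh replicate 1 was left out, to 0.54 when fresh replicate 2 was, and to 0.18 when replicate 1 of RNA-Best was, and it passed in none of these. Replicates of *Fstl3* varied by 20.5% of the mean in fresh and 15.3% in RNA-Best libraries, where counting alone would give 18.7% and 31.9%.

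Both type II receptors, which bind activin first, were higher in RNA-Best. *Acvr2a* (chr2:48814109-48903269) had 16.1, 17.4 and 15.6 CPM in fresh and 22.5, 24.2 and 23.9 CPM in RNA-Best libraries. The groups were well apart, and its log2 fold change was 0.49 (95% interval 0.34 to 0.63, adjusted p = 5.57e-07 from edgeR), which is 1.40-fold. It passed under all 16 alternative settings tried, and its lowest value was 0.30, with the GC offset. *Acvr2b* (chr9:119402118-119434995) had 2.39, 2.02 and 2.35 CPM in fresh and 2.74, 3.06 and 3.92 CPM in RNA-Best libraries. The groups did not overlap, with RNA-Best replicate 3 the highest. Its log2 fold change was 0.58 (95% interval 0.22 to 0.94, adjusted p = 0.00689 from edgeR). Without RNA-Best replicate 3 it was 0.35 and did not pass (adjusted p = 0.278 from edgeR), and DESeq2 gave an adjusted p of 0.0722, and after thinning to equal depth it was 0.89 (adjusted p = 0.0233 from edgeR).

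Of the type I receptors, *Acvr1b* (chr15:101174067-101213684), which encodes the main activin type I receptor ALK4, had 40.9, 39.1 and 39.2 CPM in fresh and 41.8, 49.5 and 43.5 CPM in RNA-Best libraries. The groups did not overlap, but fresh replicate 1 lay close to RNA-Best replicate 1. Its log2 fold change was 0.14 (95% interval 0.03 to 0.25, adjusted p = 0.0345 from edgeR), and it did not pass under 9 of the 16 alternatives, among them the length offset (adjusted p = 0.111 from edgeR). Leaving out a single library ended the call for fresh replicate 2 (adjusted p = 0.111 from edgeR), fresh replicate 3 (0.0536), RNA-Best replicate 2 (0.199) and RNA-Best replicate 3 (0.0673). *Acvr1* (chr2:58388644-58567157) encodes ALK2, a type I receptor better known for bone morphogenetic protein signals. It had 40.4, 38.5 and 40.0 CPM in fresh and 43.7, 40.7 and 38.2 CPM in RNA-Best libraries. The groups overlapped, and the log2 fold change was 0.02 (95% interval -0.09 to 0.14, adjusted p = 0.741 from edgeR).

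*Tgfbr3* (chr5:107106570-107289629), the gene of betaglycan, had 79.4, 75.6 and 75.9 CPM in fresh and 93.6, 94.9 and 89.1 CPM in RNA-Best libraries. All RNA-Best libraries were higher than all fresh libraries. Its log2 fold change was 0.24 (95% interval 0.16 to 0.32, adjusted p = 5.90e-06 from edgeR). With the length offset it was 0.11 (adjusted p = 0.0234 from edgeR).

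**Figure D2:**
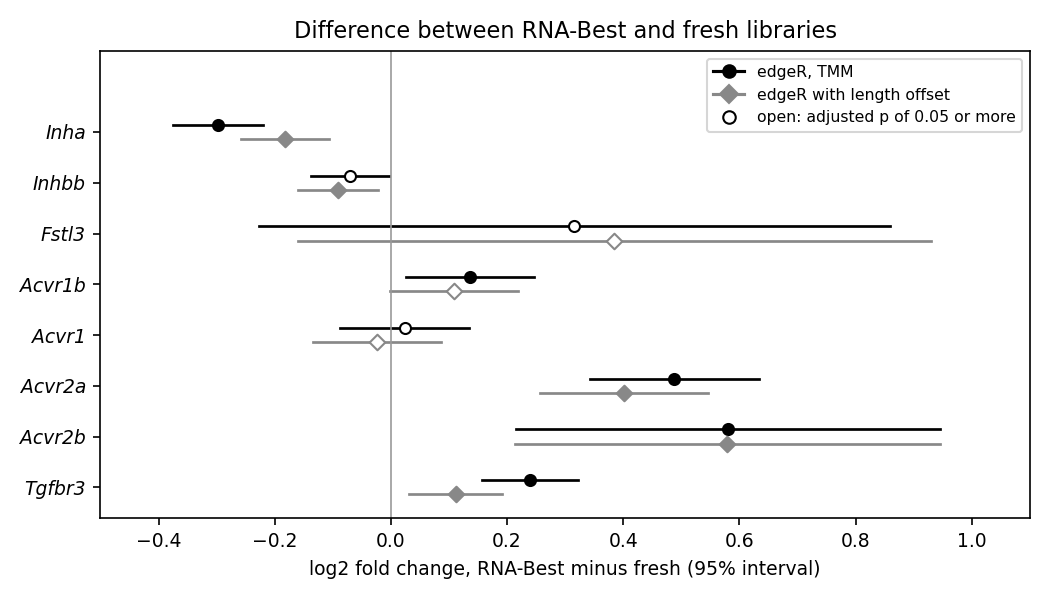
The log2 fold change of each tested gene, RNA-Best minus fresh, with its 95% interval, by edgeR's test (black circles) and by the same test given exonic length as offset (grey diamonds). Filled symbols have an adjusted p under 0.05, and *Acvr2a*, *Acvr2b* and *Tgfbr3* lie to the right of 0 and *Inha* to the left of 0 in both fits.

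Exonic length was followed because the median log2 fold change of the genes tested rose with length over the ranges from 1 to 7 kb. Among all tested genes of 1 to 2 kb, where *Inha* lies, the median log2 fold change was -0.18, with quartiles of -0.30 and -0.0078, so *Inha* at -0.30 lay at the lower quartile. In the 5 to 7 kb range of *Acvr2a* and *Tgfbr3* it was 0.08, with quartiles of -0.05 and 0.22, so both genes lay above the upper quartile. *Acvr2b*, at 3 to 4 kb, stood at 0.58 against a median of -0.06 and an upper quartile of 0.07. In the 4 to 5 kb range the median was -0.00075 and the upper quartile 0.13, next to 0.14 for *Acvr1b*, 0.02 for *Acvr1* and -0.07 for *Inhbb*. With the length offset 5 of the 8 genes passed, where 40.6% of all genes did. *Acvr2a* was then at 0.40, *Acvr2b* at 0.58 and *Tgfbr3* at 0.11, while *Inha* at -0.18 and *Inhbb* at -0.09 were lower (adjusted p = 0.0295 for *Inhbb* from edgeR).

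**Figure D3:**
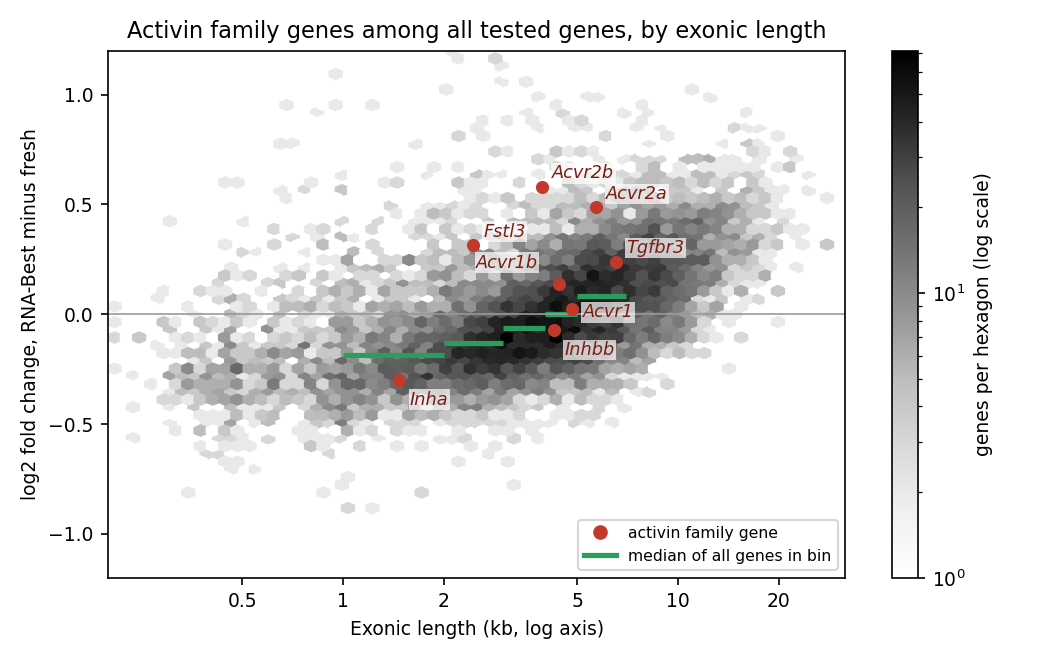
The log2 fold change, RNA-Best minus fresh, against exonic length in kb (log axis) for all tested genes as hexagons shaded by their number, with the activin family genes in red and the median of all genes in 5 length ranges in green. *Acvr2b*, *Acvr2a*, *Fstl3*, *Tgfbr3*, *Acvr1b* and *Acvr1* lie above the green medians and *Inha* and *Inhbb* below. Of these, *Fstl3*, *Acvr1* and *Inhbb* did not pass in edgeR's test, and 259 genes outside the axes are not drawn.

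Ratios within a library do not depend on its total and were taken for the pairs with counts in every library. The ratio of *Inhbb* to *Inha* per kb was 1.04, 0.962 and 0.923 in fresh and 1.06, 1.16 and 1.22 in RNA-Best libraries. Each RNA-Best library had the higher ratio, and on the log2 scale the mean rose from -0.04 ± 0.09 to 0.20 ± 0.10 (SD, n = 3 each). The difference of 0.23 had p = 0.1 in an exact permutation test, two-sided, which is the smallest that 3 libraries against 3 allow. These genes differ in length, and a ratio per kb does not remove a relation of fold change to length. With the length offset the log2 fold changes were -0.09 for *Inhbb* and -0.18 for *Inha*, closer together than -0.07 and -0.30 without it. *Acvr2a* to *Acvr2b* was 4.64, 5.94 and 4.59 in fresh and 5.67, 5.48 and 4.22 in RNA-Best libraries. These overlapped, with a difference of 0.02 on the log2 scale (exact permutation test, two-sided, p = 1.0). The ratio of *Acvr1b* to *Acvr1* was 1.11, 1.11 and 1.07 in fresh and 1.05, 1.33 and 1.25 in RNA-Best libraries, and these overlapped as well (difference of 0.13 on the log2 scale, exact permutation test, two-sided, p = 0.4).

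**Figure D4:**
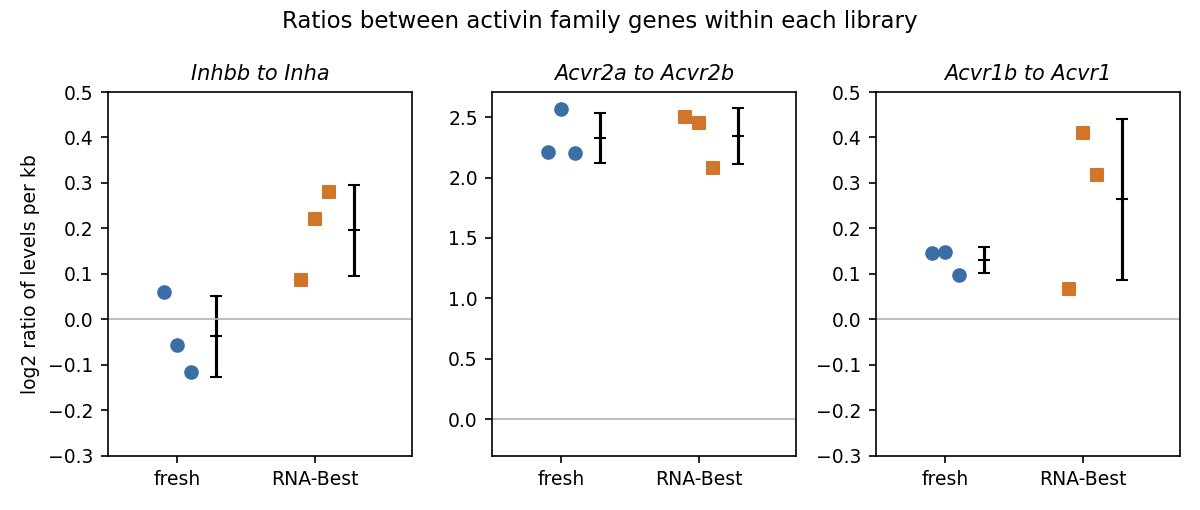
The log2 ratio of levels per kb in each library for 3 pairs of genes, with group mean and SD (bars) beside the points of 3 fresh and 3 RNA-Best libraries. The ratio of *Inhbb* to *Inha* lies higher in every RNA-Best library, while those of *Acvr2a* to *Acvr2b* and *Acvr1b* to *Acvr1* overlap between groups.

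Other genes of the pathway were taken from lists chosen for their role. Of 44 such genes, 32 were tested, of which 12 were higher and 4 lower in RNA-Best and 16 did not pass (edgeR, adjusted p under 0.05), which is again near the 50.8% of all genes. Their median log2 fold change was 0.10, against -0.01 for all genes tested and 0.19 for the 8 activin family genes. With the length offset the pathway median was -0.0045, with 7 genes higher and 7 lower. In that fit the median was -0.04 for all genes and 0.11 for the activin family genes.

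Among the 10 genes that receive and carry the signal, 8 were tested, 5 rose and 1 fell (26.0% and 24.8% of all genes tested). With the length offset 2 were higher and 2 lower. Without it, those that rose were *Acvr1c*, *Tgfbr1*, *Zfyve9* at 0.15, *Smad4* at 0.11 and *Smad3* at 0.09 on the log2 scale. Adjusted p was 0.00964 for *Zfyve9* and 0.00369 for *Smad4* (edgeR). *Zfyve9* did not pass under 8 of the 16 alternative settings, among them the length offset at 0.03, the GC offset at 0.04 and leaving out RNA-Best replicate 3 at 0.11 (edgeR, adjusted p = 0.668, 0.502 and 0.165). With no filter on low counts, which also lowered the values of all 8 tested activin family genes, *Smad4* was at 0.07 and did not pass (edgeR, adjusted p = 0.178). *Zfyve9* encodes SARA, which anchors SMAD2 and SMAD3 at endosomes, and *Smad4* the Smad shared by all branches of the family. *Acvr1c*, the type I receptor ALK7 that also serves activin B, rose by 0.43 on the log2 scale (adjusted p = 3.17e-07 from edgeR), from 21.9 to 23.3 CPM in fresh libraries to 30.1 to 32.1 CPM in RNA-Best libraries, and with the length offset it was at 0.21 and still passed. Its level per kb, 2.89 CPM, was below that of *Acvr1b* in every library. *Tgfbr1*, the type I receptor of TGF-beta, rose by 0.19 (adjusted p = 0.000684 from edgeR), and with the length offset at 0.06 and the GC offset at 0.04 it did not pass. *Fkbp1a*, whose product FKBP12 holds type I receptors inactive, was the gene that fell, at -0.18 (adjusted p = 1.74e-06 from edgeR). *Smad3* and *Smad2* encode the receptor-activated Smads and *Smad2* was named after its value was seen. Per kb, *Smad3* ranged from 46.3 to 51.0 CPM and *Smad2* from 12.9 to 14.2 CPM. The log2 fold change of *Smad3* was 0.09 and that of *Smad2* -0.02 (adjusted p = 0.0156 and 0.618 from edgeR), and with the length offset *Smad3* did not pass while *Smad2* passed at -0.24. *Smad3* also did not pass without RNA-Best replicate 3, at 0.06 (edgeR, adjusted p = 0.142), or without fresh replicate 1, at 0.08 with an adjusted p just above the threshold.

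Of 12 genes that restrain the pathway, 11 were tested, 4 rose and 7 did not pass, where 26.0% of all genes tested rose. *Skil* and *Ski* encode corepressors of the Smads, and *Smurf1* and *Smurf2* ubiquitin ligases that act on Smads and receptors. *Skil* had the largest log2 fold change of the list at 0.44, followed by *Smurf2* at 0.27, *Smurf1* at 0.18 and *Ski* at 0.11 (adjusted p = 5.66e-10, 2.89e-06, 0.000416 and 0.0116 from edgeR). With the length offset *Skil* and *Smurf2* still passed, at 0.20 and 0.16, and *Smurf1* and *Ski* did not. In that fit *Ppm1a*, which encodes a phosphatase that acts on Smads, was lower at -0.31 (edgeR, adjusted p = 7.61e-07), against 0.01 without the offset, and it was named after its values were seen.

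Of 10 further ligands and binding proteins, 7 were too low to be tested, and *Inhbc*, the beta C subunit gene, had 0 counts. *Wfikkn1*, whose product binds myostatin and GDF11, was the gene that passed, with 1.87, 2.19 and 2.83 CPM in fresh and 3.76, 3.06 and 2.67 CPM in RNA-Best libraries. The groups overlapped, and the log2 fold change was 0.52 (adjusted p = 0.0239 from edgeR). The call of *Wfikkn1* was lost with DESeq2 (adjusted p = 0.135), without RNA-Best replicate 1 at 0.35 and without fresh replicate 1 at 0.40 (edgeR, adjusted p = 0.237 and 0.0950). Of 4 genes of convertases, enzymes that cut hormone precursors, 3 were tested. In edgeR's test 0 passed, where 50.8% of all genes tested did, with 0 at an unadjusted p under 0.05, 0 by DESeq2 and 0 by limma voom. With the length offset 1 of the convertase genes passed, *Furin*, which was lower at -0.29 (edgeR, adjusted p = 9.54e-05), and with the GC offset it was at 0.03 and did not pass (named after its values were seen).

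Of 8 genes that activin regulates or that act with it in gonadotropes, 7 were tested, 2 rose and 3 fell (26.0% and 24.8% of all genes tested). *Gnrhr*, the GnRH receptor gene, had a log2 fold change of 0.43 and *Foxl2*, which acts with Smads at *Fshb*, of 0.33 (adjusted p = 5.66e-11 and 3.55e-05 from edgeR). *Pitx1* and *Nr5a1*, transcription factors of the gonadotrope lineage, were lower by log2 fold changes of -0.22 and -0.21, and *Gata2* of -0.07 (adjusted p = 5.35e-08, 5.33e-08 and 0.0344 from edgeR). *Gata2* turned to 0.03 with the GC offset, DESeq2 gave it an adjusted p of 0.0582, and leaving out fresh replicate 1 or 2 or any of the RNA-Best libraries ended its call (edgeR, adjusted p from 0.0625 to 0.118). With the GC offset *Nr5a1* was at -0.11 and still passed. *Fshb*, the target most closely tied to activin, had 0 counts in all 6 libraries, as *Inhba* and *Fst* had.

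**Figure D5:**
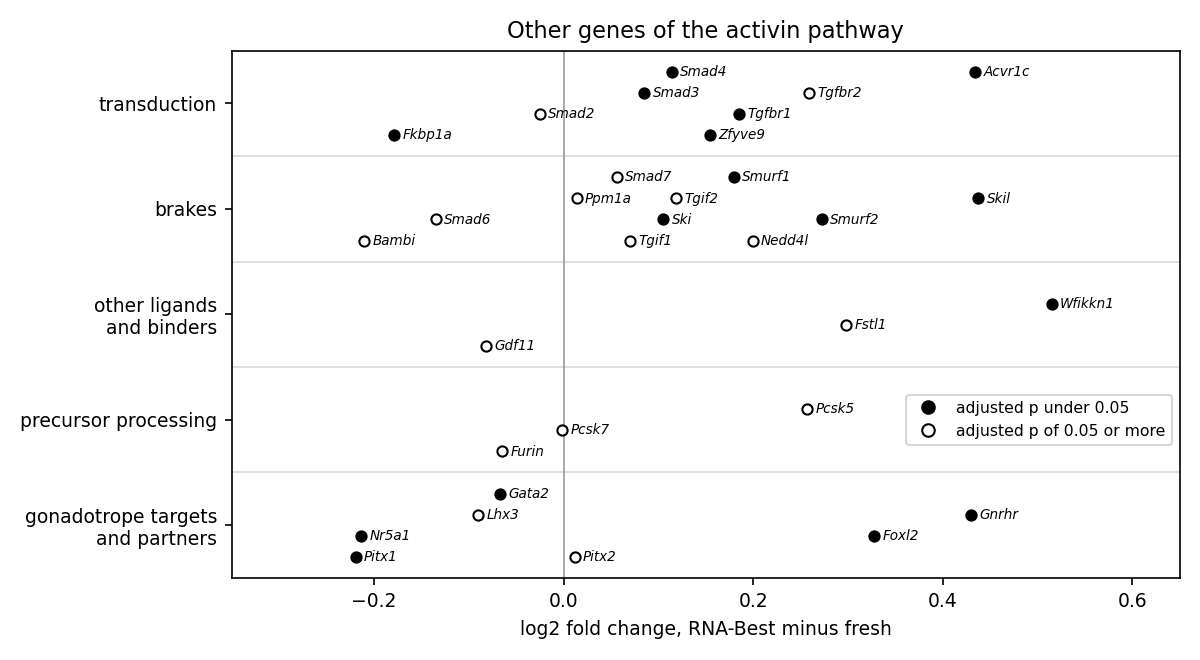
The log2 fold change, RNA-Best minus fresh, of the 32 tested pathway genes in their 5 lists, with an adjusted p under 0.05 as filled points. Of the filled points 12 lie to the right of 0 and 4 to the left, and the spread in height within a list only separates the names.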

How the data were processed

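Bulk RNA-seq libraries of GnRH-treated LβT2 cells were analysed, 3 fresh and 3 RNA-Best. Per the methods, the authors aligned single reads with STAR 2.5.1b to GRCm38 (mm10, GENCODE M8) and counted them per gene with featureCounts 1.5.0-p1, and the deposited values are estimated counts that were not scaled. Between 9.36% and 16.3% of a library's values lay more than 0.001 from a whole number, and the setting that divides reads is not given in the sources used here. Floors from 0 counts cover counting error only, while the intervals of fold changes also hold the spread between libraries. Shared or overlapping reads can move a gene's value.

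Counts were rounded and tested in R 4.3.3 with edgeR 4.0.16 (quasi-likelihood test, TMM, filterByExpr with a minimum count of 10, Benjamini-Hochberg adjustment over 14736 genes). CPM and ratios used the deposited values. Positions, exonic lengths and transcripts came from GENCODE M21 and symbols from its table, on the assembly of the authors but later than their annotation. Lengths matched 46574 genes, and GC content came from the transcripts. Promoter windows came from RefSeq. Offsets were loess fits in each library with a span of 0.5. The test was also run on simulated counts with a common spread for all genes and no trend with length, unlike these data. No result here rests on that run. Members and gene lists were chosen with earlier results of these data known. Named are the 10 members, and of each pathway list the genes with the 3 largest absolute changes among those that passed, with any other that a printed count of 5 or fewer covers. Alternatives were DESeq2 1.42.0, limma 3.58.1 (voom), size factors, no filter, a test against a 1.2-fold change, a replicate block, offsets, thinning to 4909268 counts and leaving out single libraries.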

Additional observations from a re-analysis of the deposited data

How the results depend on the processing

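The number of activin family genes with an adjusted p under 0.05 was 3 with DESeq2's Wald test and 1 (*Acvr2a*) in the test against a 1.2-fold change, otherwise 4 or 5. That of pathway genes was 3 in the test against a 1.2-fold change, otherwise 11 to 16. Leaving out single libraries gave 4 to 5 and 13 to 16. The share of all genes that passed is given only for the main test (50.8%) and the length offset (40.6%). A drop in these counts under another setting thus cannot be told from a drop over all genes. *Acvr1*, near 0, turned to -0.00889 with the GC offset, -0.0238 with the length offset, -0.0229 with no filter, -0.0233 with replicate block and length offset, and ranged from -0.0331 to 0.0944 with single libraries left out. *Inhbb* was 0.0538 with the GC offset. With no filter the log2 fold changes of all 8 tested family genes were lower by similar amounts, as 0.193 against 0.240 for *Tgfbr3*. The log2 ratio of *Acvr2a* to *Acvr2b* differed by -0.395 after thinning, and by -0.0625 to 0.151 with single libraries left out. *Inhbb* to *Inha* differed by 0.191 to 0.288 and *Acvr1b* to *Acvr1* by 0.0613 to 0.233 with single libraries left out. The causes were not tested. *Fstl3* had no value after thinning.

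The deviations of same-numbered libraries from their group means had correlations of -0.00623, 0.00939 and -0.00752 over genes, so replicate numbers give no pairing. A replicate block was fitted all the same, and under it 5 activin family genes and 16 pathway genes passed, but *Wfikkn1* did not (edgeR, adjusted p = 0.0568). Each of the 8 tested genes of the family kept its direction and its side of the threshold.

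Depth limits *Acvr2b* and *Fstl3*, and levels below 0.611 CPM in the shallowest library.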
